A study of Mus musculus with 15 samples.

Results

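CD4 T cells of the small intestinal lamina propria, the tissue layer under the gut epithelium, were compared between mice on any high-fat diet and mice on control chow. The diet group pooled the 10 arrays of mice fed a high-fat diet (HFD) for 10 or 30 days, 5 arrays a day, and the 5 arrays titled control formed the other group, so that all 15 arrays of the study were used. All samples came from male mice, the cells were sorted by flow cytometry from lamina propria leukocytes, and their RNA was amplified with SuperAmp, a commercial method for small samples, before Cy3 labelling and hybridisation to single-colour Agilent arrays. Strain, age and diet composition were not stated in the labels, and the control titles carry no day. The series title calls the fed animals prediabetic and diabetic, a status for which no measurement was used here, and its design text gives the diet as a means of altering the gut microbiota. The labels leave unsaid whether the 5 arrays of a group represent 5 animals, so the p-values reflect array-to-array spread that could be purely technical. The question was which differences from control were carried by both days. Both days were set against the same 5 controls, so their differences from control share those arrays.

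Lamina propria CD4 T cells include helper cells that secrete interleukin-17 or interferon-gamma, and regulatory T cells that restrain them. They respond to the microbes and nutrients of the gut, and a high-fat diet is known to change the gut microbiota. Activated T cells rely on glycolysis and on the mTOR kinase, and regulatory and memory cells make more use of fatty acid oxidation.

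Levels are log2 of the processed signal minus the array's 75th percentile, so 0 is the signal that 75% of the probes that are not controls do not exceed on that array. A level compares arrays for 1 probe and does not rank genes against each other. Spots well above background made up 54.9% ± 5.59 (SD, n = 10) of the array on the diet and 63.8% ± 11.96 (SD, n = 5) in control (exact permutation p = 0.0583, two-sided). Without control replicate 1, the array with the highest share (82.0%), the control share was 59.3% ± 7.23 (SD, n = 4), with an exact permutation p of 0.243. All 5 controls and day 10 replicates 1 to 3 lay on slide 1, where the shares were 59.3% ± 3.26 (SD, n = 3) on the diet and 63.8% ± 11.96 (SD, n = 5) in control (exact permutation p = 0.625). The other 2 day 10 arrays and all day 30 arrays lay on slide 2. Day 30 and slide therefore cannot be told apart in a comparison with control. A fit with slide as a block takes the slide difference from the day 10 arrays alone. The sorted cells carried T cell transcripts, since 20 of the 21 genes of the T cell receptor and CD4 identity list were well above background on all 15 arrays. Transcripts of other cells were detected too. Well above background on all 15 arrays were 6 of the 11 tested B cell and plasma cell markers (Jchain, Ighm and Pax5 among them), 6 of 15 for CD8 T, NK and cytotoxic cells (Gzma, Gzmb and Prf1 among them), 6 of 16 for macrophages and dendritic cells and 3 of 15 for absorptive epithelium. Single defining markers differed, with 0 arrays for the B cell gene Ms4a1, 12 for the CD8 alpha chain gene Cd8a, 2 for the beta chain gene Cd8b1, 15 for the macrophage receptor gene Csf1r and 11 for the epithelial gene Epcam.

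No gene passed the test of any high-fat diet against control. Of 26001 genes tested, 0 (0.0%) had an adjusted p under 0.05 by limma, and the smallest adjusted p was 0.150, for Emc9. The unadjusted p was under 0.05 for 362 higher genes (1.39% of those tested) and 600 lower genes (2.31%), together 962, fewer than the 1300.05 that uniformly distributed p-values would give. The lower share among them was 62.4%, and it depended on scaling and signal: it was 52.4% with quantile normalization, 79.2% with the percentile taken over probes detected on all arrays, 82.6% in the deposited value table, 45.8% with slide as a block (393 higher and 332 lower genes) and 44.3% without control replicate 3, where 966 higher genes reached that p. The detected-probe percentile and the deposited table also moved the median difference of all genes from 0.001 to -0.23 and -0.17. Among the 11607 genes detected on all arrays, 249 were higher and 117 lower at an unadjusted p under 0.05. Among the 14394 dimmer genes, 113 were higher and 483 lower, so the excess of lower genes lay in the dimmer genes. The median SE of the pooled difference was 0.51 for the 11607 genes well above background on every array and 0.97 for the 14394 others. Each day on its own against control also gave 0 genes, and day 30 against day 10 gave 0 (smallest adjusted p 0.411, with 1071 genes at an unadjusted p under 0.05). Single arrays changed the count of calls: Emc9 and Ufsp2 were called without day 10 replicate 1 (adjusted p = 0.0490 for each) and the olfactory receptor gene Olfr1201 without day 30 replicate 4 (adjusted p = 0.0138), and a fit with slide as a block called Vkorc1l1 instead (adjusted p = 0.0147, log2 difference -9.21 against -4.27 without the block).

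The strictest description of a difference shared by both days is that all 10 diet arrays lay on 1 side of all 5 controls. This held for 0 of 26001 genes (0.0%) upward and for 8 genes (0.0308%) downward. The arrays can be split into groups of 10 and 5 in 3003 ways. If group labels made no difference, 1 in 3003 genes would be expected to lie apart in each direction. The share of genes apart did not exceed that in either direction, so separation alone does not set the 8 downward genes off from chance. These 8 were Emc9, Gemin8, Hspa1a, Krtap6-5, Noxa1, Lcn2, a T cell receptor alpha chain transcript listed only by its Ensembl identifier ENSMUST00000103668, and a probe on chromosome 3 with no gene name. The last 2 fall outside the naming rule and were added after their values were seen. The probes behind these 8 results are shown because each result rests on the 60-base sequence that was hybridised. The first 30 bases are given 5′ to 3′ as deposited, with no part in capitals, after the position of the whole probe in build mm9.
Emc9 (chr14:56200380-56200439, minus strand): aatcactcaatggagtggttccacagatgg
Gemin8 (chrX:162627693-162627752, plus strand): gcatttttaatgtccttctttaaaccatcc
Hspa1a (chr17:35107117-35107176, minus strand): tgacaagaagaaggtgctggacaagtgcca
Krtap6-5 (chr16:89047693-89047752, minus strand): ctggagtttatgatgtgaccttgttgaaga
Noxa1 (chr2:24941229-24941288, minus strand): gaagccatgcttgtactgggaccccagcca
Lcn2 (chr2:32240199-32240258, minus strand): aaggagcatctggagcctcttcttatttgg
ENSMUST00000103668 (chr14:54377467-54377526, plus strand): tacaatccttctgggacaaagcacactgga
Unnamed probe (chr3:142274468-142274527, plus strand): aatggcagagcaacaaagaatcatatccct

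Emc9, a subunit of the endoplasmic reticulum membrane protein complex that inserts proteins into membranes, had the smallest p of all genes. Its control arrays read -1.81, 0.10, 2.57, 0.26 and -0.85, and the 10 diet arrays ran from -6.55 to -2.93 with a median of -5.18. Every diet array was low, with a gap of 1.12 between the highest diet array and the lowest control. The pooled log2 difference was -5.13 (SE 0.77; adjusted p = 0.150), and it was -4.89 at day 10. The probe was well above background on all 5 controls, 2 day 10 arrays and 0 day 30 arrays, so day 30 has only a bound, at least 12.3-fold lower. Such a bound takes the bright group's mean and, on every array of the dim group, whichever is larger, the measured value or the dimmest detected signal of that array. Over the 30 alternatives the pooled difference of Emc9 lay between -5.84 and -2.33, the latter with normexp background correction.

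Hspa1a, which encodes an inducible Hsp70 chaperone of the heat shock response, read -1.42, -0.06, -0.55, -1.01 and 0.29 on the controls. The diet arrays ran from -6.02 to -2.16 with a median of -3.66. The groups were apart by 0.74, and the pooled log2 difference was -3.19 (SE 0.68; adjusted p = 0.430), with -3.56 at day 10 and -2.82 at day 30. It was well above background on 5 of 5 control arrays and 5 of 10 diet arrays, and with dim values raised to the lowest detected signal the difference was -2.75. It was -1.50 with normexp and -1.39 in the deposited table, which holds values only for detected spots.

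Gemin8 belongs to the SMN complex, which assembles the small nuclear ribonucleoproteins of the spliceosome. Its controls read -2.38, -0.85, -0.73, -2.48 and -2.83, against a diet range of -6.55 to -3.38 (median -5.79) (adjusted p = 0.430). Only 1 of the 10 diet arrays was well above background, day 30 replicate 5, so at day 10 the gene was at least 4.78-fold lower and no log2 difference is given. Krtap6-5, a keratin-associated protein gene best known from hair, lay between -3.60 and -1.38 in control and between -5.57 and -3.60 on the diet, so that its groups were apart by less than 0.01. It was detected on 1 diet array, and at day 30 was at least 2.21-fold lower.

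Noxa1 and Lcn2 were detected on nearly all arrays. Noxa1 encodes an activator of NADPH oxidase, and its levels ran from -1.62 to 0.77 in control and from -3.10 to -1.79 on the diet (difference -1.62, SE 0.49), with a median of -2.31 on the diet and -0.82 in control. Lcn2 encodes lipocalin 2, an iron-chelator-binding protein of innate defence. Its controls read 0.81, 0.26, 0.07, -0.07 and 0.63 and its diet arrays ran from -1.31 to -0.07 (median -0.67), which left a gap of less than 0.01 and a difference of -0.99 (SE 0.39). The T cell receptor alpha transcript ran from 1.53 to 4.00 in control and from -2.19 to 1.46 on the diet (difference -2.52, SE 0.62; adjusted p = 0.737), and a second probe of the same transcript had a difference of -3.12. The unnamed chromosome 3 probe ran from 1.24 to 2.86 in control and from -5.60 to 0.58 on the diet (difference -5.34, SE 0.96). Under 5 other scalings or signal treatments these 8 separations held in between 1 and 4 settings each, 4 for the unnamed probe, 3 for Emc9, Hspa1a and the receptor transcript, 2 for Gemin8 and Noxa1 and 1 for Krtap6-5 and Lcn2. In the deposited table only genes with a value on every array could count as apart. Emc9, Gemin8, Hspa1a, Krtap6-5, Noxa1 and the unnamed probe, each undetected on some array, therefore could not lie apart there.

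**Figure D1:**
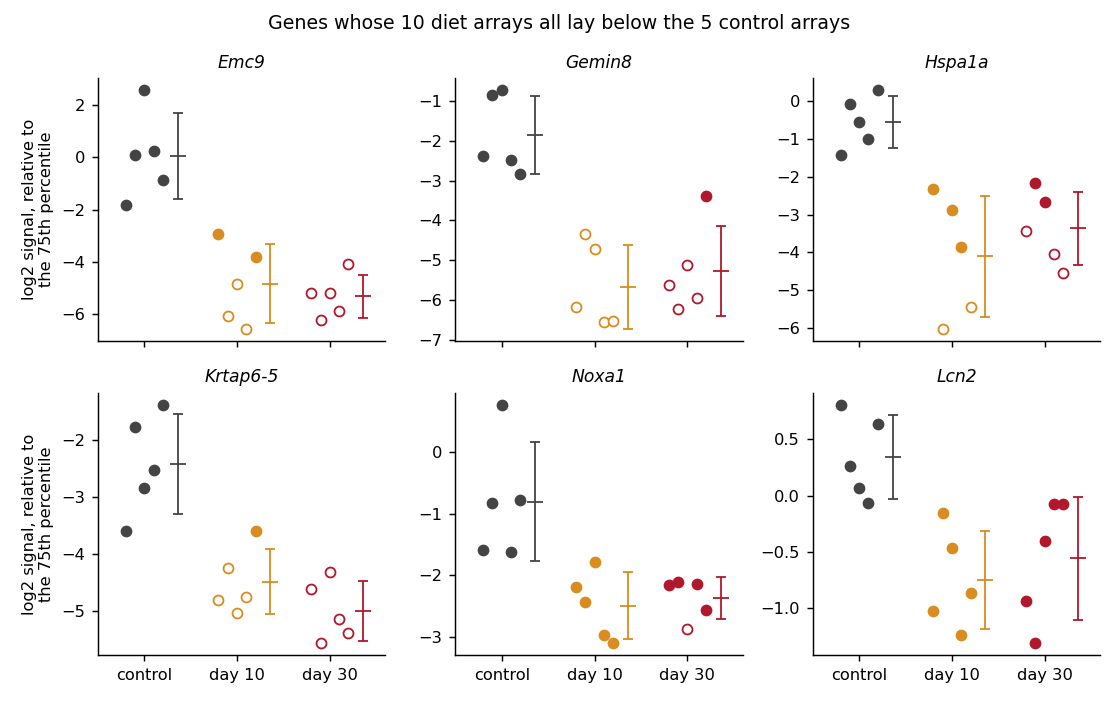
Each point is 1 array, plotted by group as log2 signal relative to the array's 75th percentile. Filled points were well above background, open points were not, and the bar beside each group is the mean with its SD (n = 5). All diet arrays lie under all controls in these 6 genes, with a gap of 1.12 in Emc9 and of less than 0.01 in Krtap6-5 and Lcn2.

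Of the genes detected on at least 12 arrays, the 12 higher ones of smallest p covered adhesion, signalling scaffolds and metabolism, and none passed the test (adjusted p from 0.430 to 0.940). Icam2, an adhesion molecule that binds the integrin LFA-1, read -3.52, -3.94, -4.27, -3.21 and -0.43 in control. Its diet arrays ran from -1.09 to 2.70 (median 0.38), so that only control replicate 5 lay among them. The pooled log2 difference was 3.52 (SE 0.72; adjusted p = 0.430), with 3.73 at day 10 and 3.31 at day 30.

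Cd200r2, a member of the CD200 receptor family, read -1.44, -1.55, 0.84, -0.10 and -0.73 in control and from 0.39 to 2.87 (median 1.68) on the diet. Control replicate 3 alone reached the diet range. Its difference was 2.18 (SE 0.45; adjusted p = 0.430), smaller at day 10 (1.62) than at day 30 (2.74). Slc9a3r1, the scaffold NHERF1 that ties membrane proteins to the actin cortex, read -0.03, 0.95, -0.71, -0.08 and 2.03 in control and from 1.42 to 3.53 (median 3.06) on the diet, a difference of 2.26 (SE 0.49), which was 1.31 with slide as a block.

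Rptor encodes raptor, the scaffold of the nutrient-sensing kinase complex mTORC1. Its controls read -6.25, -4.18, -3.82, -2.23 and -2.24, and its diet arrays ran from -2.47 to 1.79 with a median of -0.41. A single diet array, day 30 replicate 1, lay among the controls, and the difference was 3.27 (SE 0.74; adjusted p = 0.492), with 2.98 at day 10 and 3.57 at day 30. The gene was detected on 4 of 5 control arrays and 10 of 10 diet arrays.

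Pygl, Slc25a28 and Mvk are metabolic genes. Pygl, a glycogen phosphorylase, ran from -1.80 to 1.07 in control and from 0.61 to 3.08 on the diet (difference 2.32, SE 0.55). Slc25a28, mitoferrin 2, which imports iron into mitochondria, ran from 2.16 to 4.86 and from 4.60 to 6.15 (difference 1.50, SE 0.37). Mvk, mevalonate kinase of the cholesterol pathway, read 2.52, 2.62, 3.37, 2.71 and 2.60 in control and from 3.06 to 5.56 (median 4.36) on the diet, a difference of 1.43 (SE 0.36), whereas its other probe gave 0.08.

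The remaining higher genes also had all or all but 1 of the diet arrays above the control mean. Mapk8ip3, the JNK scaffold JIP3, had the largest difference of the 12 at 4.03 (SE 1.02), with control levels from -4.21 to -1.92 and diet levels from -2.79 to 3.27, and its 2 other probes gave 0.36 and 1.40. Ubxn1, a cofactor of the p97 ATPase, differed by 1.78 (SE 0.40), Rab5if by 2.65 (SE 0.60) and the zinc finger gene Zfp472 by 1.94 (SE 0.50). The probe listed under Csnk2a2, a catalytic subunit of casein kinase 2, differed by 1.94 (SE 0.39; adjusted p = 0.430). That probe is annotated to a single cDNA rather than to the RefSeq transcript, and the other 2 probes listed under the gene were well above background on only 3 and 0 arrays. In the deposited table the differences of these 12 genes had the same sign and were smaller, from 0.60 (Mvk) to 1.79 (Mapk8ip3).

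**Figure D2:**
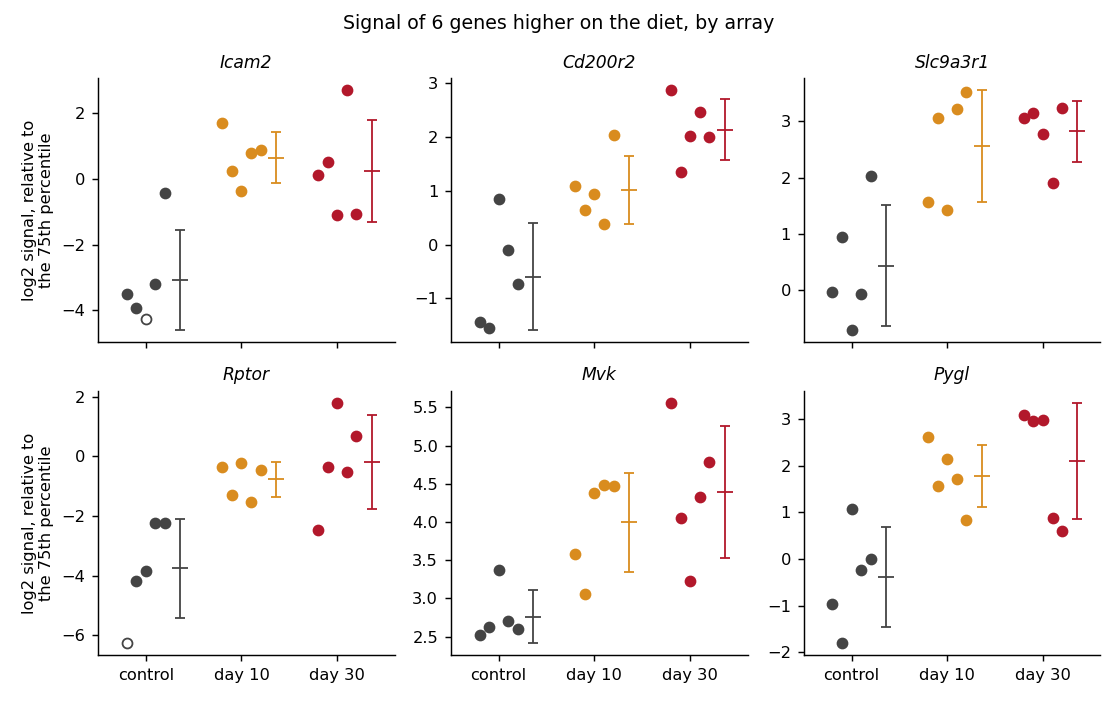
Levels of 6 of the higher genes on each array (log2 signal relative to the array's 75th percentile), with filled points for arrays on which the probe was well above background and the mean and SD (n = 5) beside each group. In Icam2 the 10 diet arrays lie at -1.09 or above and 4 of the 5 controls at -3.21 or below.

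The 12 lower genes of smallest p among well detected genes were led by Dusp14, a dual-specificity phosphatase that dampens T cell receptor signalling. Its controls read 0.27, 1.05, 3.43, 1.15 and 2.79. The diet arrays ran from -5.49 to 1.46 with a median of -2.81. Day 10 replicates 1 and 2, both on slide 1, reached the control range at 0.59 and 1.46, and the other 8 diet arrays lay at -2.31 or below. The pooled difference was -4.30 (SE 0.91; adjusted p = 0.430), with -3.25 at day 10 and -5.35 at day 30, and it was -1.99 with slide as a block and -1.93 within slide 1.

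Mitochondrial and lipid genes followed. Lyrm2, a small mitochondrial LYR-motif protein gene, read 1.43, 2.49, 2.95, -1.55 and 1.33 in control and from -2.57 to -0.35 (median -1.40) on the diet, so that only control replicate 4 overlapped. Its difference was -2.74 (SE 0.65; adjusted p = 0.623), with -2.75 at day 10 and -2.72 at day 30. Ppara, the nuclear receptor that switches on fatty acid oxidation, lay between -0.15 and 0.38 on 4 controls and at -2.34 on control replicate 2, and ran from -3.34 to -1.27 (median -2.41) on the diet. The 4 other controls lay above all diet arrays. The difference of Ppara was -1.99 (SE 0.54; adjusted p = 0.997), but its other tested probe gave 0.51 and the mean of the gene's probes -0.74.

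Nmnat1, a nuclear enzyme of NAD synthesis, differed by -2.29 (SE 0.77), and control replicate 3 at -3.70 lay deep in the diet range of -4.72 to -0.69. Pstk, a kinase of selenocysteine synthesis, differed by -2.82 (SE 0.87) and Prxl2a, a peroxiredoxin-like protein gene, by -1.66 (SE 0.58). Ncf1, the p47phox subunit of the phagocyte NADPH oxidase, ran from -0.98 to 1.75 in control and from -3.79 to 1.13 on the diet, and its difference of -2.35 (SE 0.77) was -0.75 with slide as a block. Hjurp, the chaperone that loads the centromere histone CENP-A, differed by -2.10 (SE 0.72) but only by -0.51 with slide as a block. Rrad, a Ras-related GTPase gene, differed by -1.54 (SE 0.51), Lrch3 by -1.85 (SE 0.60) and the vomeronasal receptor pseudogene Vmn2r-ps54 by -1.87 (SE 0.58). Of these 12 genes none passed the test, with adjusted p from 0.430 to 1.00.

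**Figure D3:**
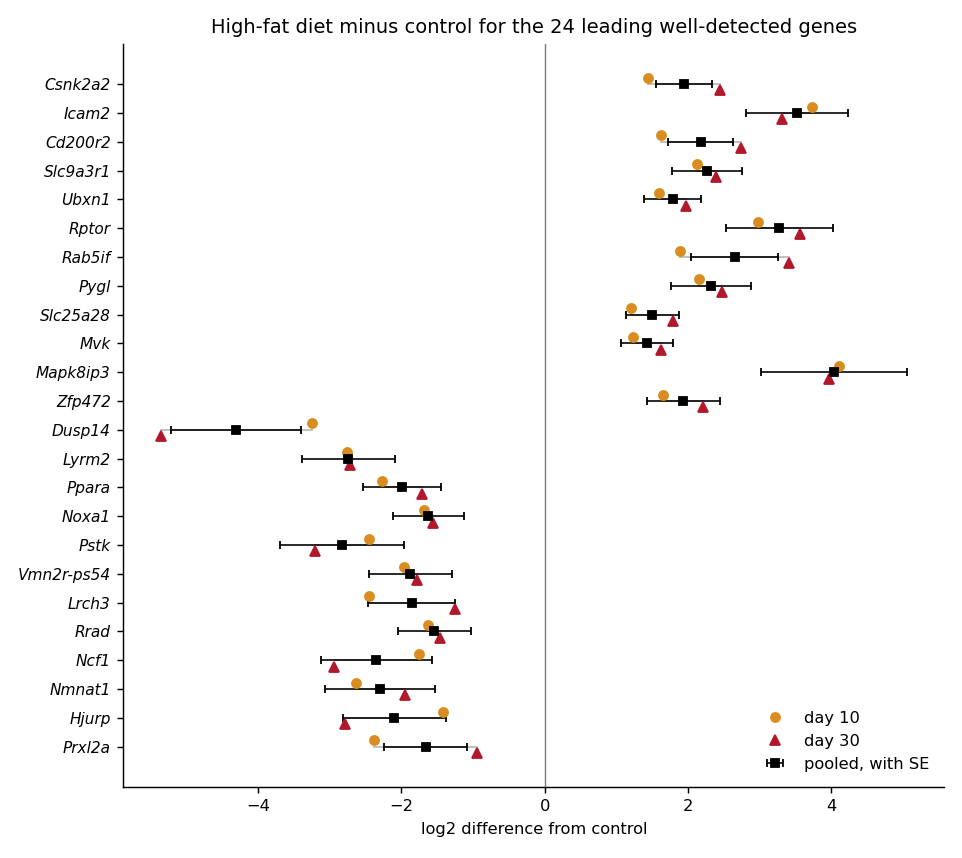
Log2 difference from control for the 12 higher and 12 lower well detected genes of smallest p. Squares are the pooled difference with its SE (10 diet arrays, 5 controls), circles day 10 and triangles day 30. Both days lie on the same side of 0 for every gene because the choice of genes required it.

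The lower genes of smallest p detected on fewer than 12 arrays included some that passed the filter on dim genes through the control arrays. Nol9, a kinase of ribosomal RNA processing, read -0.76, 0.42, 3.07, 1.02 and 1.30 in control and from -4.09 to -0.18 (median -3.33) on the diet, with day 10 replicates 2 and 3 inside the control range. Its difference was -3.76 (SE 0.74; adjusted p = 0.430), and its other probe gave -0.08. Enc1, a kelch-family actin-binding protein gene, ran from -2.58 to 1.07 in control and from -5.94 to -1.45 on the diet. It was detected on all 5 controls and 1 diet array and was at least 9.26-fold lower at day 10. Ndufaf2, an assembly factor of respiratory complex I, ran from -3.70 to 2.27 and from -6.44 to -2.42, was likewise detected on all 5 controls and 1 diet array, and was at least 8.70-fold lower at day 10.

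Among dimmer genes that lay higher, 2 were detected on 0 control arrays. Bbip1, a subunit of the BBSome of the primary cilium, was detected on 7 diet arrays and was at least 4.10-fold higher (means of -5.69 in control and -2.45 on the diet; adjusted p = 1.00), and the Polycomb gene Scmh1, detected on 5 diet arrays, was at least 2.90-fold higher (means of -6.00 and -2.95; adjusted p = 1.00). Scmh1 was detected on 1 day 10 array, replicate 4, and 4 of 5 day 30 arrays. Pex16, needed to build the peroxisome membrane, differed by 4.71 at day 10 and by 0.93 at day 30. It was detected in control on replicates 1 and 4 alone, and at day 30 on replicate 2 alone. Tubgcp5 of the gamma-tubulin complex differed by 3.42 (SE 1.16), and the ubiquitin ligase gene Rnf43 by 2.80 (SE 0.96). Foxred2, of protein degradation in the endoplasmic reticulum, differed by 3.82 (SE 1.30), and was -0.27 in the deposited table, where only detected spots count. Tubgcp5, Rnf43 and Foxred2 were detected on 8, 8 and 9 arrays. In control they were detected on replicate 5, replicate 1 and replicate 4 alone, in that order. These genes passed the filter on dim genes mainly through diet arrays. Their differences and SEs rest largely on control values not well above background.

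T cell identity and helper subset genes showed no common direction. Of the 21 receptor and CD4 identity genes tested, 15 had a higher mean on the diet and 6 a lower one, with a median of 0.29 (0.18 at day 10 and 0.32 at day 30), beside 13022 of 26001 genes above control and a median of 0.12 for genes detected on all arrays. The direction turned without control replicate 1, where 9 were above and 12 below with a median of -0.16, as it did in the deposited table (-0.06) and after adding the detection share to the fit (-0.45). Thy1, a surface glycoprotein of T cells, read 3.83, 5.02, 5.13, 4.01 and 4.43 in control and from 4.24 to 5.69 (median 5.31) on the diet, a difference of 0.70 (SE 0.27). It was the 1 of 21 members at an unadjusted p under 0.05, beside 1.39% higher of all genes at that p. Cd5, which restrains receptor signalling, differed by 0.97 (SE 0.51), Cd3e by -0.32 (SE 0.57), and Cd4 by 0.58 (SE 0.33; -0.23 for its other probe).

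Of 17 Th17 genes 10 were higher and 7 lower, with a median of 0.13 that ran from -0.58 to 0.41 over the alternatives. Il22, a cytokine that strengthens the epithelial barrier, read -1.22, -0.91, 4.72, 1.82 and 0.74 in control and from -3.26 to 2.55 (median -2.01) on the diet. The groups overlapped widely, and its difference was -2.23 (SE 1.05), or -1.31 without control replicate 3. Il17f was -2.26 (SE 1.46), with -4.29 at day 10 and -0.24 at day 30, and 0.60 in the deposited table. At day 10 it was detected on replicates 1 and 5 alone, so its day 10 value rests largely on signals not well above background. Il17a differed by -0.66 (SE 0.90) and the AP-1 family factor Batf by -1.20 (SE 0.61).

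Of 14 Th1 genes 8 were higher and 6 lower (median 0.04). Ifng, the interferon-gamma gene, ran from 0.24 to 2.73 in control and from -4.88 to 1.88 on the diet, a difference of -1.69 (SE 0.95) with 8 of 10 diet arrays below the control mean. Tbx21, the Th1 master regulator, differed by 0.35 (SE 0.29; -0.16 in the deposited table), the T-box gene Eomes by -2.53 (SE 1.19) and Hopx by 1.17 (SE 0.52; -0.32 for its other probe). Of 11 Th2 genes 5 lay above and 6 below (median -0.20), with 1.07 (SE 0.47) for the interleukin-4 signal transducer Stat6, for which 1 of its 2 other probes had the opposite sign. Ccr8, a chemokine receptor, had -2.66 (SE 1.18), the growth factor gene Areg -2.32 (SE 1.26) and Gata3 -0.47 (SE 0.47).

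Regulatory T cell genes had a median below 0 in 29 of 30 alternatives. Among 20 such genes 9 were higher and 11 lower, 0 of them at an unadjusted p under 0.05 in either direction, with a median of -0.24 (-0.18 at day 10 and -0.23 at day 30; 0.01 without control replicate 3). Foxp3, the master regulator, ran from -1.10 to 2.53 in control and from -1.71 to 1.90 on the diet, a difference of -0.99 (SE 0.67), of which day 10 had -0.33 and day 30 -1.66. The anti-inflammatory cytokine gene Il10 differed by -0.82 (SE 0.52). Ctla4, an inhibitory receptor, differed by 0.10 (SE 0.37) and the interleukin-2 receptor gene Il2ra by 0.25 (SE 1.64), both of them values whose sign changed with the setting.

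Genes that steer T cells to the gut lay on both sides. Of 15 gut homing and residency genes 10 were higher and 5 lower (median 0.33, turning to -0.14 without control replicate 1, with 4 higher and 11 lower). The 2 at an unadjusted p under 0.05 were both lower, beside 2.31% lower and 1.39% higher of all genes at that p. Gpr15, a homing receptor of the large intestine, read -4.12, -0.82, -0.17, -1.46 and -0.48 in control and from -5.65 to -1.40 (median -4.14) on the diet, a difference of -2.52 (SE 0.84). It was detected on 7 of 15 arrays, on the diet only on day 10 replicate 4 and day 30 replicates 2 and 4. The diet median of Gpr15 thus rests largely on values not well above background. Ccr10, a mucosal and skin chemokine receptor, differed by -2.17 (SE 0.88), with 9 of 10 diet arrays below the control mean. Ccr10 was detected on 10 of 15 arrays, all controls among them. The small-intestinal homing receptor gene Ccr9 differed by 0.41 (SE 0.57; -1.57 for its other probe), and the integrin genes Itgae and Itgb7 by -0.33 (SE 1.16; 0.14 in the deposited table) and 0.74 (SE 0.70). In the list Naive and recirculating T cell 9 of 13 lay above control (median 0.44). Without control replicate 1 the count was 6 above and 7 below (median -0.13), as in the deposited table (median -0.03). The list mean was lower on the diet (0.39, against 0.57 in control). Ccr7, the lymph node homing receptor, had 1.77 (SE 0.65) with 9 of 10 diet arrays above the control mean. Ccr7 was detected on 7 of 15 arrays, in control on replicate 4 alone, and passed the filter mainly through diet arrays. The actinin gene Actn1 had -3.92 (SE 1.29) and Lef1 -2.47 (SE 1.26; 0.13 for its other probe). Actn1 and Lef1 were each detected on 9 of 15 arrays, all controls among them, so their diet values lay partly at background.

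Of the 20 cytokine receptors and regulators 16 were higher on the diet and 4 lower, with a median of 0.39 (0.33 at day 10 and 0.47 at day 30) and 0 at an unadjusted p under 0.05. Il2rg, the shared gamma chain of several interleukin receptors, ran from 2.16 to 5.25 in control and from 3.87 to 5.45 on the diet (difference 0.81, SE 0.40). The interleukin-21 receptor gene Il21r differed by 0.78 (SE 0.40) and Stat5b by 1.02 (SE 0.53). In these 3 genes control replicate 1 was the lowest of all 15 arrays. The median of the list was 0.07 in the deposited table, 0.11 without control replicate 1 and -0.10 once the fit included the detection share.

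Genes of the cytosolic ribosome lay higher on the diet in the scaling used here, with exceptions under other settings given below the counts. In the list Cytosolic ribosomal proteins 68 of 69 genes had a higher mean on the diet, 9 (of 69) at an unadjusted p under 0.05 and 0 lower at that p, beside 1.39% and 2.31% of all genes. Of the 11607 genes detected on all arrays, 249 were higher and 117 lower at that p. The list's median was 0.44 (0.27 at day 10 and 0.61 at day 30), beside 0.12 for all genes detected on every array, as these 69 were. Rps9, of the small subunit, read 5.39, 6.82, 6.82, 6.64 and 6.16 in control and from 6.09 to 7.61 (median 7.22) on the diet, a difference of 0.82 (SE 0.25; adjusted p = 1.00). Rps15 differed by 0.81 (SE 0.30) and the stalk protein gene Rplp1 by 1.19 (SE 0.47). The list's mean level ran from 4.00 to 5.85 in control and from 4.85 to 6.11 on the diet, with 9 of 10 diet arrays above the control mean of 5.06. Without control replicate 1 the count was 57 of 69 with a median of 0.15, and 2 genes at that p, and with day 30 replicate 3 left out as well it was 50 of 69 with a median of 0.08. Without control replicate 3 the median was 0.66 and 39 genes were higher at an unadjusted p under 0.05. With slide as a block 62 of 69 lay higher (median 0.27), 1 of them at that p. Within slide 1, where the diet arrays are day 10 replicates 1 to 3, 58 of 69 lay higher (median 0.19), 0 at that p. The direction turned in the deposited table (30 higher, 39 lower, median -0.03) and once the detection share entered the fit (26 higher, 43 lower, median -0.07).

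**Figure D4:**
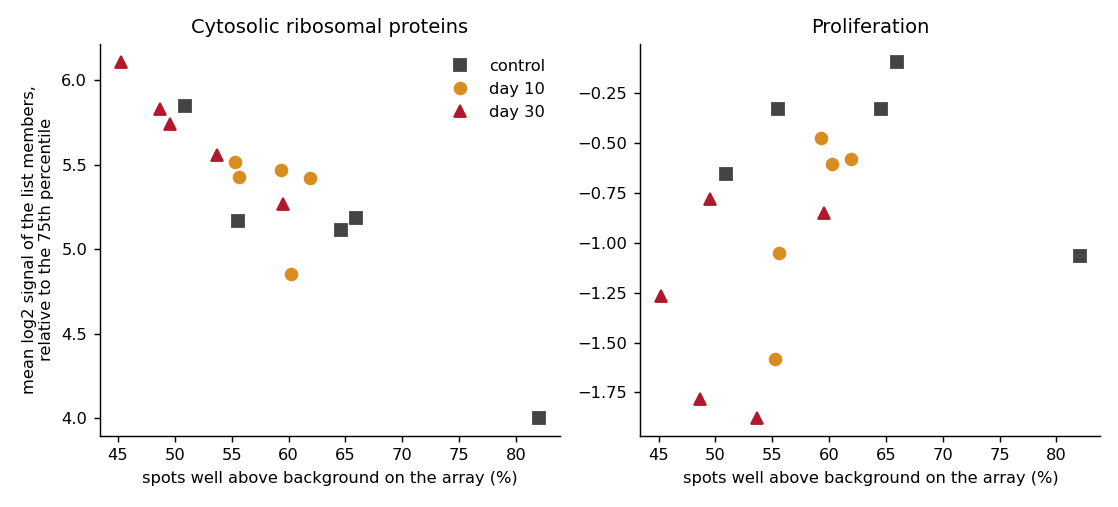
Mean log2 level of the tested members of 2 gene lists on each array, against the share of spots well above background on that array. The control array at the right, replicate 1, has a share of 82.0% and the lowest mean of cytosolic ribosomal protein genes (4.00), and the diet arrays hold the highest (6.11).

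Of 74 mitochondrial ribosomal protein genes 45 were higher and 29 lower, with a median of 0.18 (-0.13 in the deposited table). Mrps21 was the 1 lower gene at an unadjusted p under 0.05 (-2.71, SE 0.82), beside 2.31% lower of all genes at that p. Proteasome genes had 28 of 37 above control and a median of 0.20 (15 of 37 and -0.07 without control replicate 1), led by Psmb1 with 0.97 (SE 0.38). In oxidative phosphorylation 31 of 46 lay above control (median 0.31, with 0.14 at day 10 and 0.51 at day 30). The ATP synthase genes Atp5o and Atp5g3 differed by 2.12 (SE 0.97) and 1.85 (SE 0.91), and the complex I gene Ndufs1 by 0.72 (SE 0.37). The median of the oxidative phosphorylation list was 0.04 without control replicate 1, where 25 of 46 lay above control, and -0.06 with slide as a block.

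Most proliferation genes had lower means on the diet. Of 27 tested genes 6 were above and 21 below, 2 (of 27) lower at an unadjusted p under 0.05 and 0 higher (2.31% and 1.39% of all genes), with a median of -0.36 (-0.10 at day 10 and -0.51 at day 30). The sign of this median held in all 30 alternatives, from -0.68 to -0.10, while the count below control was 22 of 27 without control replicate 1, 16 of 27 with slide as a block and within slide 1, and 13 (against 9 above) in the deposited table. The mean level of the list ran from -1.07 to -0.09 in control and from -1.88 to -0.47 on the diet, and 1 of 10 diet arrays exceeded the control mean. Ckap2l, of the mitotic spindle, read -4.45, 1.66, 2.26, 1.49 and 0.05 in control and from -6.49 to 0.38 (median -5.82) on the diet, a difference of -4.98 (SE 1.20; adjusted p = 0.689). It was detected on 2 of 10 diet arrays and was at least 19.9-fold lower at day 10, where 0 arrays detected it. The mitotic kinase gene Aurka differed by -1.31 (SE 0.61). The replication helicase gene Mcm6 had -1.88 (SE 0.89) for both days but 0.03 at day 10 and -3.79 at day 30. Of the 27 genes 9 were detected on all arrays. Among all tested genes dimmer than that, 483 of 14394 were lower at an unadjusted p under 0.05.

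Fat and sugar metabolism genes did not share a direction. Of 28 genes of fatty acid oxidation and PPAR targets 15 were higher and 13 lower (median 0.23, from 0.00 to 0.40 over the alternatives), and the 3 at an unadjusted p under 0.05 were all lower, beside 2.31% lower and 1.39% higher of all genes at that p. Besides Ppara these were enzymes of mitochondrial beta-oxidation. Cpt2, the inner-membrane carnitine palmitoyltransferase, read -2.66, 0.75, -4.35, 0.55 and -0.71 in control and from -6.20 to -3.33 (median -5.29) on the diet. Control replicate 3 lay among the diet arrays, the pooled difference was -3.80 (SE 0.84; adjusted p = 0.458), and with 0 of 5 day 30 arrays detected the gene was at least 4.83-fold lower then. Cpt2 was detected on 5 of 15 arrays, and day 10 replicate 5 was the only diet array among them. It thus passed the filter on dim genes through the control arrays. The other Cpt2 probe, well above background on 4 arrays and so left out by that filter, gave 0.28. Eci1, an isomerase for unsaturated fatty acids, differed by -3.09 (SE 1.16) and was detected on 9 of 15 arrays, all controls among them. Cpt1a, which starts the same carnitine shuttle on the outer membrane, had 1.42 (SE 0.76) with 9 of 10 diet arrays above the control mean, and -0.03 in the deposited table.

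Of 29 genes of cholesterol and fatty acid synthesis 10 were higher and 19 lower, with a median of -0.24. The 2 at an unadjusted p under 0.05 were both higher, Mvk and Srebf2, beside 1.39% higher and 2.31% lower of all genes at that p. Srebf2, the master regulator of sterol synthesis, differed by 1.08 (SE 0.49), but its other probe by -2.33. The desaturase gene Scd2 had -2.89 (SE 1.43). Of 22 glycolysis genes 8 were higher and 14 lower (median -0.12), and the 2 glucose transporter genes named here pointed apart, with 2.17 (SE 1.17) for Slc2a1 and -2.61 (SE 1.14) for Slc2a3, the latter turning to 0.48 with slide as a block.

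Of 34 insulin and mTOR signalling genes 20 were higher and 14 lower (median 0.35, with 17 on each side without control replicate 1). Rptor was the 1 member at an unadjusted p under 0.05, beside 1.39% higher and 2.31% lower of all genes at that p. The phosphoinositide 3-kinase genes pointed apart, with 0.91 (SE 0.44) for the regulatory subunit Pik3r1 and -2.39 (SE 1.21) for the catalytic subunit Pik3ca, which was 0.70 with slide as a block. Among 17 nuclear receptors for lipids, vitamins and steroids 5 were higher and 12 lower (median -0.05). Nr1h4, the bile acid receptor FXR, had -2.49 (SE 0.79), was detected on 5 control and 3 diet arrays, and was at least 3.31-fold lower at day 30, where 0 arrays detected it.

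Heat shock genes split evenly, 9 higher and 9 lower (median -0.02). Hspa1a was the 1 of 18 at an unadjusted p under 0.05, beside 2.31% lower of all genes at that p. Of 23 immediate early genes 15 lay above control (median 0.25, with -0.17 at day 10 and 0.67 at day 30, and from -0.50 to 0.46 over the alternatives). Fos differed by 0.43 (SE 0.54; -0.18 without control replicate 1), the antiproliferative gene Btg2 by 0.80 (SE 0.38) and the MAP kinase phosphatase gene Dusp4 by -3.09 (SE 1.29; 0.28 in the deposited table). Dusp4 was detected on 9 of 15 arrays, all controls among them. Unfolded protein and integrated stress response genes had 13 of 21 above control (median 0.32, from -0.47 to 0.46 over the alternatives) and 0 at an unadjusted p under 0.05, with -2.98 (SE 1.54) for Atf6 and -1.15 (SE 0.61) for Trib3. Of 26 interferon response genes 16 lay above control (median 0.09), a direction that turned with the percentile over detected probes (7 above), in the deposited table (8 above) and with slide as a block (10 above, median -0.30). Rtp4, an interferon-induced chaperone gene, was the 1 of 26 at an unadjusted p under 0.05, beside 2.31% lower of all genes at that p. Its controls read 1.50, -0.44, 2.49, 0.50 and 3.78 and its diet arrays ran from -4.28 to 1.39 (median -0.88), a difference of -2.68 (SE 1.00) with 10 of 10 diet arrays below the control mean.

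The medians of 7 further lists ran from -0.23 to 0.15. They were 0.08 for 20 NF-kB and inflammatory cytokine genes, 0.08 for 19 microbial pattern sensing genes, 0.15 for 12 TGF-beta signalling genes, 0.12 for 17 circadian clock genes, -0.02 for 21 apoptosis genes, -0.14 for 11 inhibitory receptors and -0.23 for 8 follicular helper T cell genes. In these 7 lists 0 genes had an unadjusted p under 0.05. Over all 38 lists the median kept its sign in every alternative that gave a value for 4, namely proliferation, fatty acid oxidation, granulocyte markers and red blood cell markers.

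Other cell types of the lamina propria were followed through lists of their markers. Of 16 macrophage and dendritic cell markers 11 lay above control (median 0.27), with list means from -1.38 to -0.23 in control and from -1.43 to 0.17 on the diet. H2-Aa, an MHC class II alpha chain gene, read -3.52, 0.39, 4.13, 1.36 and 1.74 in control and from -5.88 to -0.37 (median -4.72) on the diet. All 10 diet arrays lay below the control mean and control replicate 1 lay among them, with a difference of -4.85 (SE 1.15; adjusted p = 0.623), and the gene was detected on 5 of 5 control and 3 of 10 diet arrays. The invariant chain gene Cd74 of the same antigen presentation route, detected on all 15 arrays, had a difference of 1.78 (SE 0.55).

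Of 11 B cell and plasma cell markers 6 lay above control (median 0.10), with list means from -1.39 to -0.38 in control and from -1.86 to 0.29 on the diet. Jchain, which joins secreted antibody units, had 2.07 (SE 1.03) and the IgE receptor gene Fcer2a -1.07 (SE 0.46). Of 15 markers of CD8 T, NK and cytotoxic cells 9 lay above control (median 0.27; list means -0.69 to 0.46 and -0.79 to 0.82), and of 10 innate lymphoid cell markers 6 did (median 0.20; -0.81 to -0.22 and -1.55 to 0.01), among them Arg1 with 1.97 (SE 0.89; -0.13 in the deposited table). Of 8 granulocyte and mast cell markers 1 lay above control and 7 below (median -0.60, with -0.16 at day 10 and -1.07 at day 30). The list means ran from -2.12 to -1.71 in control, from -2.31 to -1.63 at day 10 and from -3.47 to -2.95 at day 30, so that the day 30 arrays lay below all others. Only 2 of the 8 were detected on all arrays. At day 30 Fcer1a and Mpo were detected on 0 arrays, Siglecf on 1, Epx on 2, Kit on 3, Ly6g on 4 and Cxcr2 and Elane on 5. These list means thus rest in part on values not well above background. Absorptive epithelium markers had 7 of 15 above control (median -0.12; -2.14 to -1.02 and -2.82 to -1.15), secretory and antimicrobial epithelium markers 3 of 6 (median -0.04; -2.03 to -0.45 and -2.14 to -0.85), and stroma, muscle and endothelium markers 4 of 10 (median -0.22; -0.87 to -0.47 and -1.57 to -0.34). Of 4 red blood cell markers 3 lay above control (median 0.89; -4.72 to -1.23 and -3.71 to -0.06), led by Epb42 with 3.54 (SE 1.28; -0.32 for its other probe). The part of other cells in the results above was not tested, and in sorted cells fewer cells of a type and less RNA per cell cannot be told apart.

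**Figure D5:**
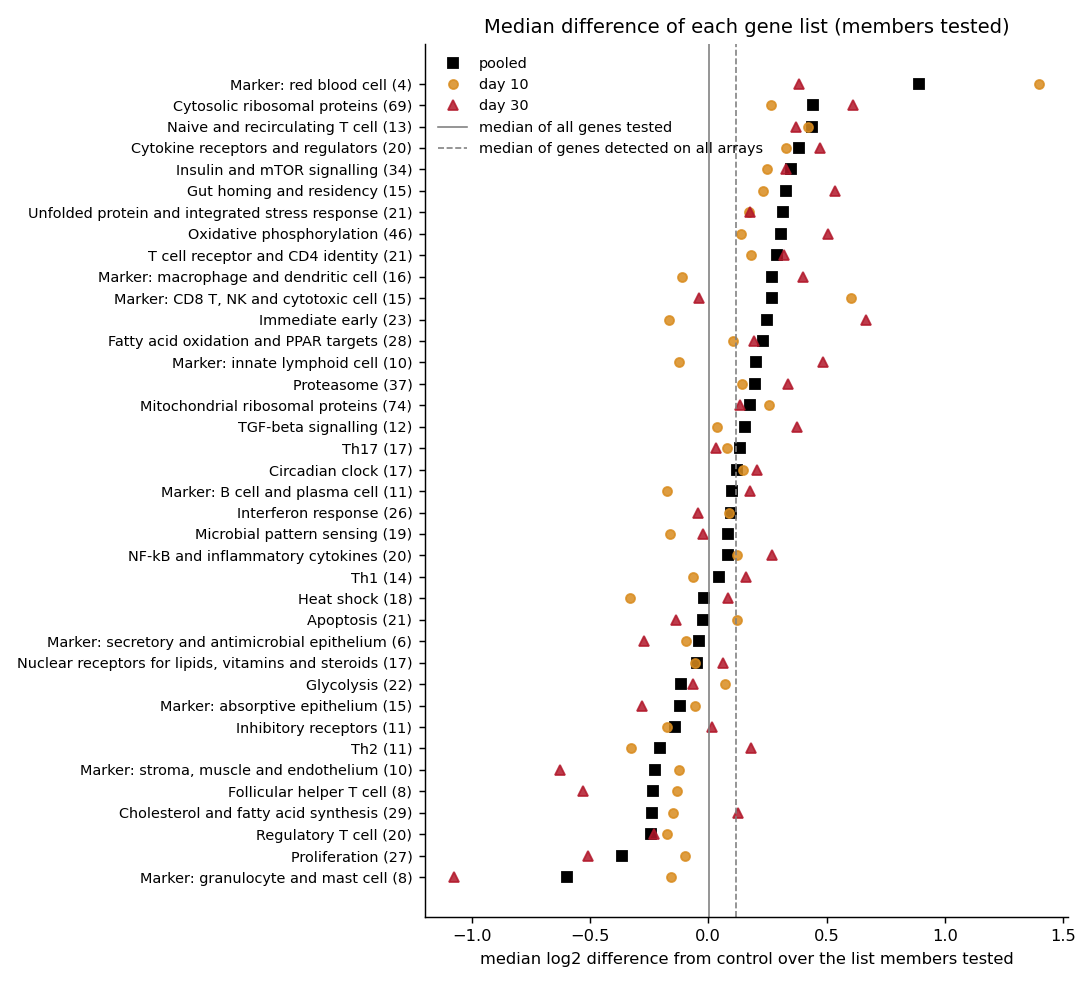
Median log2 difference from control over the tested members of each gene list (number tested in brackets), pooled (square), at day 10 (circle) and at day 30 (triangle). The solid line is the median of all genes tested (0.001) and the dashed line that of genes detected on all arrays (0.12), and the cytosolic ribosomal protein list lies at 0.44 and the proliferation list at -0.36.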

How the data were processed

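Agilent Feature Extraction 10.7.3.1 produced the deposited scanner files, whose processed intensity is background-subtracted within each array; probe positions refer to mm9, per the file headers. The authors' deposited value table holds log2 values, only for spots well above background, and no source used here gives its scaling. Background and outlier flags in the deposited files were used as other columns. Of 62975 spots, 59304 were not controls (55680 probes, 34821 gene names), and 31482 probes were named through RefSeq accessions, symbols or synonyms, the other 24198 keeping the file's name. Outlier spots left 45 probe values missing, 1 damaged spot line was left out, and 0 spots were saturated. Precision is limited by the number of arrays.

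Processed intensity was taken to log2 and each array's 75th percentile over its non-control probes subtracted. Repeated spots were averaged per probe, the brightest probe stood for a gene, and genes well above background on at least 5 of 15 arrays were tested (26001, with 8820 left out). limma 3.58.1 in R 4.3.3 fitted 3 group means over all 15 arrays (lmFit, eBayes with an intensity trend, two-sided), with the mean of both diet groups minus control as the contrast and Benjamini-Hochberg adjustment over all genes. The script was tested on simulated data. Alternatives covered background correction (normexp, offset 50), normalization, the deposited table, filters, slide, the replicate number, detection share, probe choice and leaving out each array. Leaving out control replicate 1 and day 30 replicate 3 together was chosen after seeing the data.

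Named genes with a RefSeq symbol and differences of 1 sign on both days are the 12 higher and 12 lower of smallest p among genes detected on at least 12 arrays, the 6 and 6 among dimmer genes, and those whose groups do not overlap. Whatever their values, up to 3 members of smallest p of each list described and 25 fixed genes were added. Ufsp2, Olfr1201 and Vkorc1l1 were named after their values were seen. Some genes that this choice covers are not reported here. The comparison, the genes and the 38 lists were chosen with earlier results of these data known.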

Additional observations from a re-analysis of the deposited data

Results flagged for a closer look

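Among 318 groups of 5 arrays, the 3 groups of each of the 105 genes named and of the detection share, 27 held an array that stood apart from the other 4 (gap over range above 0.710); chance marks about 1 group in 20. In control these were replicate 1 for Ccr8 (-3.63), Il10 (0.30), Epb42 (-2.01) and Cd3e (-0.55), replicate 2 for Ppara (-2.34), replicate 3 for Mvk (3.37), replicate 4 for Foxred2 (0.39), and replicate 5 for Icam2 (-0.43) and Tubgcp5 (-3.66). At day 10 they were replicate 1 for Dusp4 (0.47), Atp5g3 (-3.91), H2-Aa (-0.37) and the unnamed chromosome 3 probe (-0.79), replicate 2 for Slc2a1 (-4.05), replicate 3 for Foxred2 (-5.47), Gata3 (1.22) and Itgae (-5.07), and replicate 4 for Scmh1 (-0.86) and Btg2 (4.42). At day 30 they were replicate 2 for Ndufs1 (3.82), replicate 3 for Csnk2a2 (3.22), Foxred2 (-4.91) and Pstk (-0.42), replicate 4 for Nmnat1 (-0.69), Il17f (-5.06) and Hopx (-0.14), and replicate 5 for Rrad (0.98).

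The days differed at an unadjusted p under 0.05 for 13 of the 105 genes, and for 0 after adjustment over all genes (smallest adjusted p 0.657 by limma). Of all 26001 genes tested, 1071 differed between the days at that unadjusted p. Many of the 105 were chosen for a small p in the same fit, so the 105 are not a fair sample of all genes. The log2 difference, day 30 minus day 10, was above 0 for Il17f (4.05), Scmh1 (3.68), Ccr7 (1.94), Cd74 (1.52), Rab5if (1.52), Prxl2a (1.43), Cd200r2 (1.12), Psmb1 (1.07) and Csnk2a2 (1.00). It was below 0 for Mrps21 (-4.11), Mcm6 (-3.82), Pex16 (-3.78) and Slc2a3 (-2.99).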

How the results depend on the processing

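The number of genes called was 0 in 27 of 30 alternatives, 1 with slide as a block, and 0 to 2 when single arrays were left out. The count of higher genes at an unadjusted p under 0.05 (362) was 221 with the percentile over detected probes, 905 after adding the detection share to the fit, and 296 to 966 without single arrays. The count of lower genes (600) was 1240 in the deposited table, 162 among genes detected on all arrays, 332 with slide as a block (393 higher), 367 within slide 1, and 488 to 767 without single arrays. Genes whose diet arrays all lay above all controls (0) numbered 1 with normexp, 3 with quantile normalization, 3 with no filter on dim genes, 2 with low values raised, 221 within slide 1 and 0 to 22 without single arrays; those with all below (8) numbered 3 with normexp, 3 in the deposited table, 2 among genes detected on all arrays, 242 within slide 1 and 9 to 30 without single arrays. Without control replicate 1 and day 30 replicate 3 together, an alternative chosen after seeing the data, these were 21 above and 28 below. With fewer arrays separation is easier to reach by construction. In the deposited table only genes with a value on every array could count as apart. For the other shifts the cause was not tested.

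Of 105 genes named, 88 kept their direction in all alternatives that gave a value (3043 of 3083 values over all genes). In the deposited table the reversed differences were -0.27 for Foxred2, 0.60 for Il17f, 0.28 for Dusp4, -0.13 for Arg1, -0.31 for Ctla4, -0.16 for Tbx21, 0.14 for Itgae, -0.20 for Fos and -0.028 for Cpt1a. With the detection share in the fit they were -0.045 for Il21r, -0.059 for Stat5b, -0.67 for Ctla4, -1.82 for Il2ra, -0.40 for Ccr9 and -0.59 for Fos. With slide as a block they were 0.48 for Slc2a3 and 0.70 for Pik3ca, and within slide 1 they were 0.42 for Mcm6, 0.65 for Slc2a3 and -0.088 for Il2ra. The mean of a gene's probes gave -0.62 for Srebf2 and -0.58 for Ccr9. The percentile over detected probes gave -0.13 for Ctla4, which was -0.015 with normexp and -0.17 with quantile normalization. Without control replicate 1 and day 30 replicate 3 together, values were -0.46 for Ctla4, -0.93 for Il2ra, -0.13 for Ccr9, -0.19 for Fos and -1.44 for Itgae (not reversed). Without single arrays Ctla4 lay between -0.39 and 0.33, Il2ra between -0.88 and 1.18, Ccr9 between -0.06 and 0.86, Itgae between -1.19 and 0.41 and Fos between -0.18 and 0.93. The replicate numbers did not pair the samples (correlations of same-numbered deviations from -0.126 to 0.153), and with the replicate number as a block 0 genes were called, with 391 higher and 583 lower at an unadjusted p under 0.05. The median SE was 0.97 for genes not well above background on every array and 0.51 for the others.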
